A study of Mus musculus with 6 samples.

Results

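Transcript levels of 35 cell junction genes were compared between Zfp750 knockout and control libraries of sorted mouse skin cells. The genes were taken by name from the desmosome, the tight junction, the gap junction and the nectin adhesions, with earlier results of these data known. All 35 were found among the 23934 genes of the deposited table. The knockout group held 3 libraries (S5, S6 and S7), labelled fl/fl for ZNF750, the human name of the gene, and -/- for Rosa26. The control group held 3 libraries (S2, S3 and S4). Of the control samples, 2 were labelled wt/fl and 1 wt/wt, with Rosa26 given as -/- in 2 and as +/- in 1. All samples of both groups carried a tamoxifen-inducible recombinase, Lrig1-CreERT2 (2 in each group) or Lrig1-CreER (1 in each group). All had received 4-hydroxytamoxifen as pups, on days 4 to 7 or days 5 to 8, and were taken at day 50. Lrig1, which drives the recombinase, is active in epithelial stem cells of the upper hair follicle, and the mice are labelled as expressing the red reporter protein tdTomato. Since Rosa26 often carries such reporters and is -/- in 5 of the 6 samples, the labels leave the source of tdTomato unclear.

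Desmosomes hold neighbouring keratinocytes together. Desmosomal cadherins bind across the gap between cells, and their tails join plakoglobin, plakophilins and desmoplakin, which anchor keratin filaments. Tight junctions, built from claudins and scaffold proteins, seal the space between cells of the granular layer, whereas gap junctions, built from connexins, let ions and small molecules pass between neighbours. Nectins are immunoglobulin-type adhesion proteins of early cell contacts. ZNF750 is known in human epidermis as a zinc finger transcription factor of late differentiation.

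The libraries held 16940666 to 20222372 estimated reads in the knockout group and 15310131 to 20705321 in the control group. The values below are the deposited normalized counts, which are estimated reads divided by 1 size factor per library, so that 3 reads correspond to a value of 2.39 to 3.81. Reads of fibroblast markers outnumbered those of keratinocyte markers in every library. The summed value of 8 fibroblast markers was 929700 to 1224000 in knockout libraries and 2989000 to 8922000 in controls, and that of 10 keratinocyte markers was 3581 to 24850 in knockout libraries and 836 to 27830 in controls. Most of the fibroblast sum came from the collagen genes Col1a1, Col1a2 and Col3a1. The keratinocyte sum differed more among the controls than among the knockout libraries. Krt5, a keratin of basal keratinocytes, had values of 1164, 885 and 8559 in knockout S5, S6 and S7, against 2503, 62.5 and 11805 in control S2, S3 and S4. Its partner Krt14 had 1039, 1014 and 8235 in the knockout libraries, against 1111, 17.5 and 4560 in the controls. Krt14 was thus close to Krt5 in each knockout library and well below it in each control. Control S3 stood apart by its low keratins. It had the lowest value of the 6 libraries for 6 of the 10 keratinocyte markers, all of them keratins, among them Krt15 (11.2), Krt17 (7.49) and Krt6a (listed at 0). The other markers were not lowest there. The basal transcription factor gene Trp63 (289) and Sfn (281) were close to knockout S5 and S6 in control S3, and Krt10 (136) was above every knockout library. Counts of calls, of separate groups and of slopes below are also given without control S3. In bulk samples such as these, fewer cells of a type and less RNA per cell cannot be told apart.

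Zfp750 itself (ENSMUSG00000039238) had values of 4.90, 1.82 and 7.16 in the knockout libraries, against 41.9, 3.75 and 314 in the controls. It was at the level of a few reads in the whole knockout group and in control S3, and the groups overlapped (exact 2-sided permutation test p = 0.3, where 0.1 is the smallest p that 3 against 3 libraries allow). Per 1000 of the summed Krt5 and Krt14 values, Zfp750 had 2.23, 0.960 and 0.426 in the knockout libraries, against 11.6, 46.9 and 19.2 in the controls, and on this scale the groups did not overlap (exact p = 0.1).

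Of the 35 junction genes, 28 came to 1 per 1000000 of all normalized counts in 3 or more libraries and were tested with limma on log2(value + 9.15), with Benjamini-Hochberg adjustment over all 15935 genes that passed this filter. A gene was called at an adjusted p under 0.05. Called higher in the knockout libraries were 2 of the 28, the nectin Nectin2 and the connexin Gjc1, and 0 were called lower, while over all tested genes 6.71% were called, 4.12% higher and 2.59% lower. At an unadjusted p under 0.05 there were 4 of the 28, 3 of them higher and 1 lower, where 23.2% of all tested genes passed. The groups did not overlap for 4 of the 28, against 28.8% of all tested genes. The share of calls was near that of the whole table, and the other shares were below it. The log2 fold changes (knockout minus control) of the 28 ran from -2.57 to 2.07 with a median of 0.15, and the median over all tested genes was 0.01. Leaving out control S3 gave 0 members called higher and 1 lower, the connexin Gjb2, where 2.6% of all tested genes were called higher and 1.14% lower. Without it 7 of the 28 had an unadjusted p under 0.05 (19.6% of all tested genes), and the groups did not overlap for 8 of the 28 (39.1% of all tested genes).

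Most members varied widely within each group. The SD of log2 values had a median over the 28 members of 0.918 in the knockout group and 1.38 in the control group, against 0.275 in the knockout group and 0.285 in the control group over all tested genes. The lowest of the 6 values was in control S3 for 21 of the 35 members. Among the knockout libraries S7 was the highest for 29 of the 35, and among the controls S4 for 27 of the 35. This is the order of the keratin values in these libraries.

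**Figure D1:**
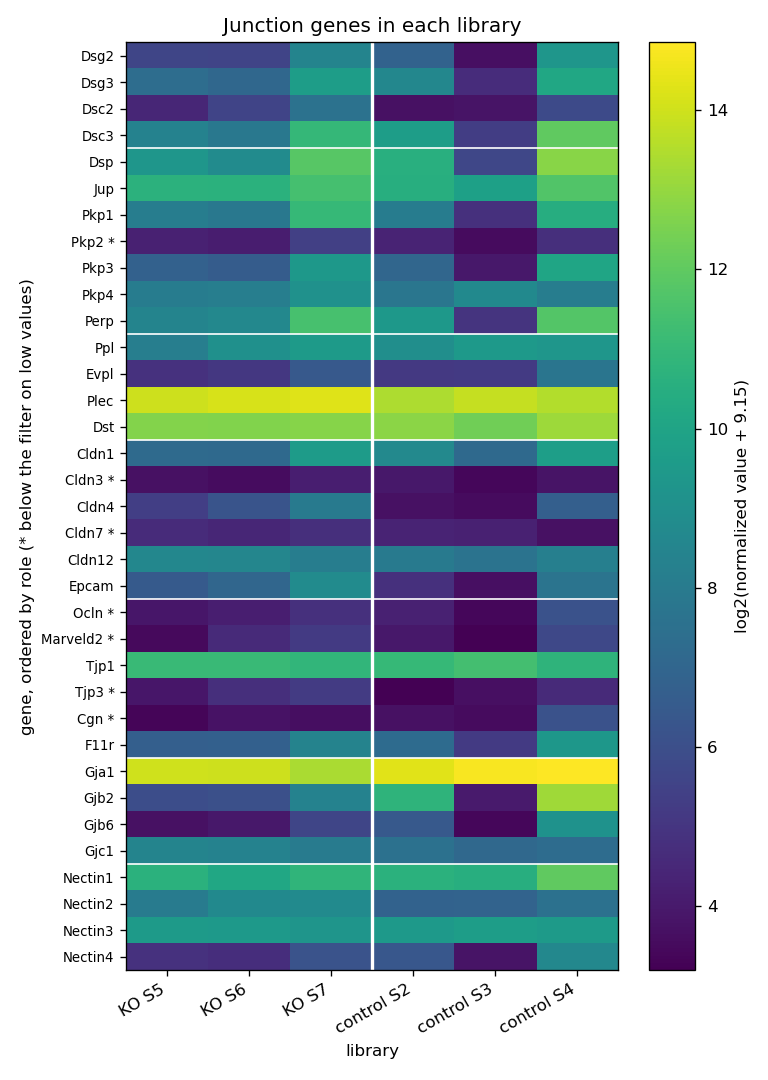
Log2(normalized value + 9.15) of the 35 junction genes in each library (yellow is high, dark blue is low), with knockout S5, S6 and S7 left of control S2, S3 and S4 and the genes grouped by role, where a star marks genes too low to be tested. Control S3 is the lowest of the 6 libraries for 21 of the 35 genes, while genes such as Plec, Dst, Tjp1, Gja1 and Nectin3 keep nearly the same shade in all 6.

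The shading of that map shows 2 kinds of junction gene. To describe them, the mean log2 level of the 10 keratinocyte markers was taken for each library. It was 7.84, 7.69 and 9.91 in knockout S5, S6 and S7, against 8.37, 5.53 and 10.06 in control S2, S3 and S4. The slope of each gene on this level, from a fit with the group as a second term, was over 0.5 log2 units per unit for 16 of the 28 tested members (57.1%), against 381 of the 15935 tested genes (2.39%). The 16 were all 4 desmosomal cadherins, Dsp, Pkp1, Pkp3, Perp, Evpl, Cldn1, Cldn4, Epcam, F11r, Gjb2, Gjb6 and Nectin4, with slopes of 0.541 to 1.84. The other 12, among them Jup, Plec, Dst, Tjp1, Gja1, Gjc1, Nectin2 and Nectin3, had slopes of -0.12 to 0.388. These slopes describe 6 libraries and carry no test. Without control S3 the slope was over 0.5 for the same 16 members and for 5.74% of all tested genes. The standard error of the knockout difference was 0.762 to 2.08 log2 units for the 16 genes and 0.149 to 0.459 for the other 12.

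**Figure D2:**
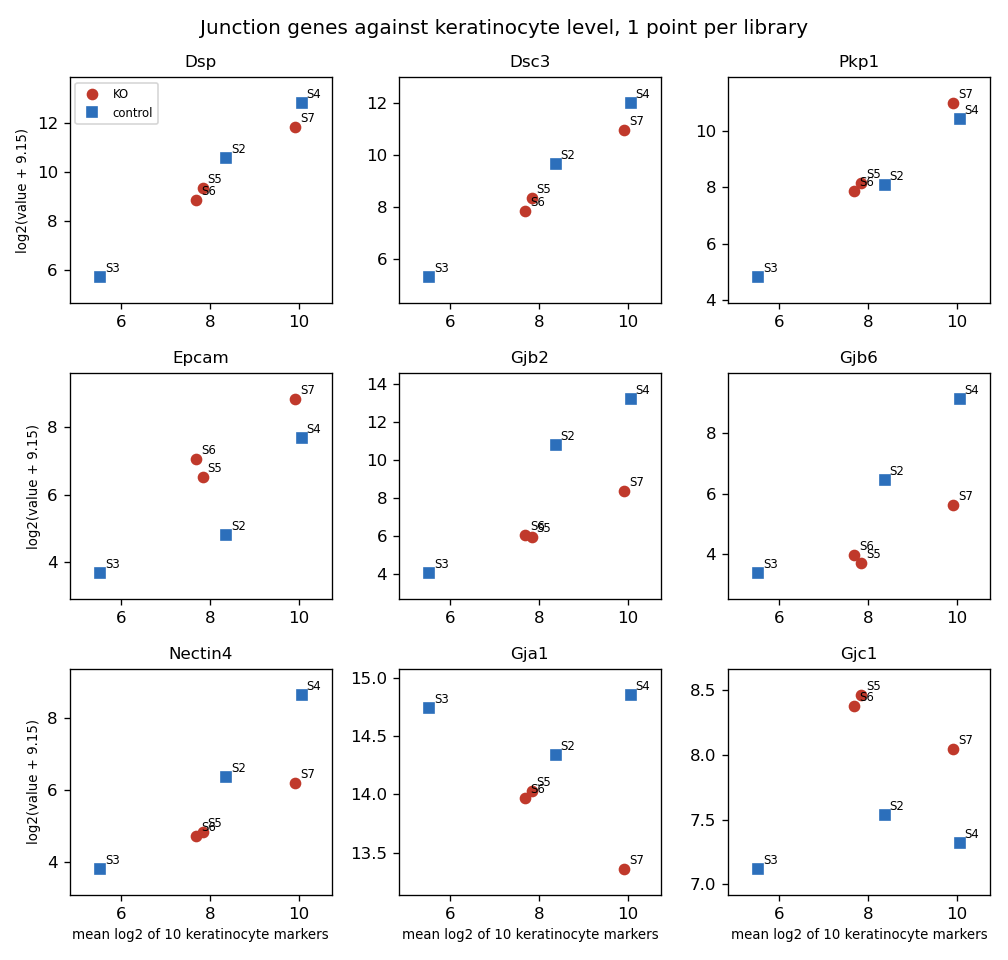
Log2(normalized value + 9.15) against the mean log2 keratinocyte level of the library for 9 junction genes, with knockout libraries as red circles and control libraries as blue squares. Dsp and Dsc3 rise with the keratinocyte level in both groups, with group differences of -0.43 ± 0.23 and -0.65 ± 0.18 when that level is held. For Gjb2, Gjb6 and Nectin4 the knockout libraries lie below control S2 and S4 at like keratinocyte levels, and the connexins Gja1 and Gjc1 do not rise with the keratinocyte level.

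A second fit therefore held the keratinocyte level as a covariate, as an alternative to the comparison of groups alone. With it 2 members were called higher, again Nectin2 and Gjc1, and 3 were called lower, Gjb2, Gjb6 and Nectin4, where 9.82% of all tested genes were called, 5.83% higher and 3.99% lower. The covariate is itself measured in these libraries, and no knockout library had a keratinocyte level near that of control S3. Of its 10 markers, Krt10, a keratin of the suprabasal layers, was called lower in the knockout libraries without the covariate (log2 fold change -1.77, limma adjusted p = 0.0496), and Krt79, a keratin of the upper hair follicle, had a log2 fold change of 3.43 with an adjusted p of 0.0611. Without control S3, this fit called 5 members higher (Dsc2, Pkp1, Epcam, Cldn4 and Nectin2) and 4 lower (Gjb2, Gjb6, Nectin4 and Dsc3), where 6.24% of all tested genes were called higher and 4.06% lower. Without control S4 it called 0 in either direction.

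**Figure D3:**
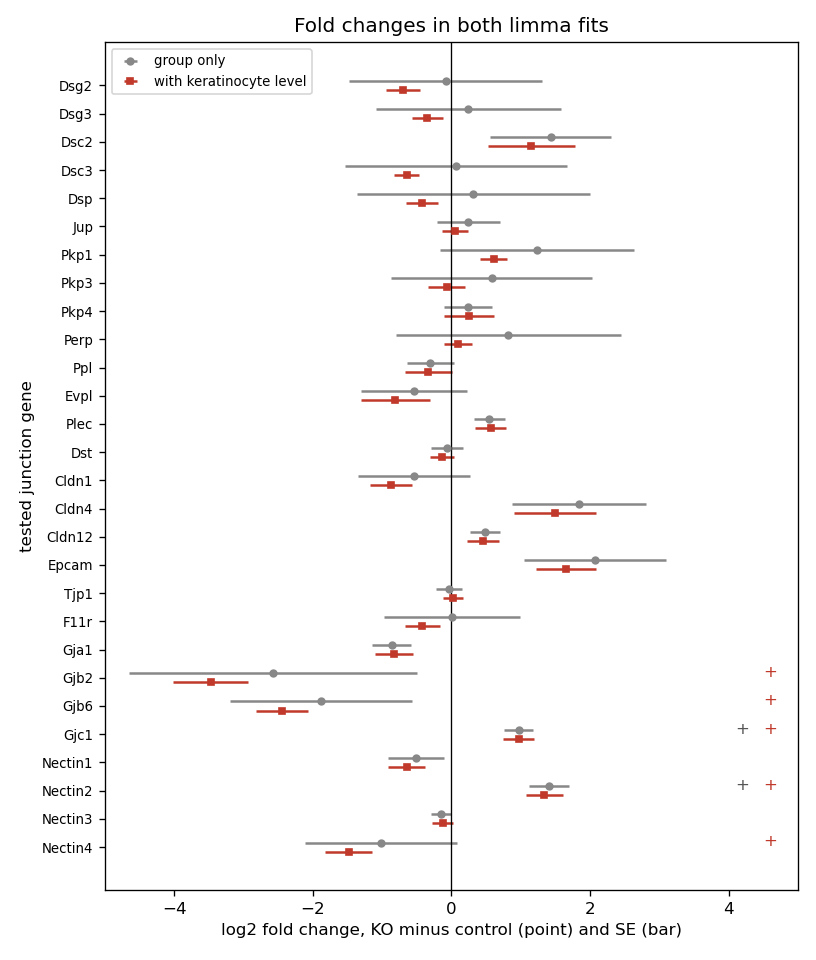
Log2 fold change (knockout minus control) of the 28 tested junction genes with standard errors, in grey for the comparison of groups alone and in red with the keratinocyte level held as a covariate, grouped by role. A plus sign at the margin marks an adjusted p under 0.05 in the fit of that colour, and the standard errors of Gjb2, Gjb6, Nectin4, Dsp and Dsc3 are much shorter with the covariate.

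Among the gap junction genes, Gjb2 had the largest difference of the 28 tested members in both fits, and Gjb6 the second largest with the keratinocyte level held. Gjb2 (ENSMUSG00000046352) and Gjb6 (ENSMUSG00000040055) encode connexins that keratinocytes and the inner ear share, and mutations of the human genes cause deafness and skin disorders. Both genes lie on chromosome 14, on the minus strand and 18600 bases apart by the table's own positions. Gjb2 had values of 52.0, 57.4 and 317 in knockout S5, S6 and S7, against 1761, 7.49 and 9434 in control S2, S3 and S4. Control S2 and S4 lay above every knockout library and control S3 lay below them all. The control values thus spanned 1260-fold, and the difference of the groups alone was -2.57 ± 2.08 (log2 fold change ± SE, n = 3 each, limma adjusted p = 0.507). With the keratinocyte level held, Gjb2 was lower in the knockout libraries by a log2 fold change of -3.47 ± 0.54 (adjusted p = 0.00816). Without control S3 the groups no longer overlapped and the comparison of groups alone gave -5.22 ± 0.92 (adjusted p = 0.0340).

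Gjb6 followed the same order of libraries, with 3.92, 6.38 and 40.6 in the knockout libraries, against 78.8, 1.25 and 546 in the controls. Its value in control S3 was a single estimated read (95% Poisson interval 0.0253 to 5.57 reads, counting error only), and Gjb2 had 6 reads there (2.2 to 13.1). The comparison of groups alone gave -1.88 ± 1.31 (limma adjusted p = 0.437), and with the keratinocyte level held Gjb6 was lower by -2.45 ± 0.37 (adjusted p = 0.00768). The calls of both genes with the covariate were lost without control S4, where the adjusted p was 0.0940 for Gjb2 and 0.122 for Gjb6, and in the leave-outs of the other 5 libraries both genes remained called.

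The summed Krt5 and Krt14 values set the genes of each library against its own basal keratin transcripts. This sum was not the same mix in both groups, as Krt14 made up a larger share of it in every knockout library than in any control. The part of this in the ratios to the sum, here and below, was not tested. Per 1000 of this sum, Gjb2 had 23.6, 30.2 and 18.9 in the knockout libraries, against 487, 93.8 and 576 in the controls. The knockout libraries lay close together and below every control. Gjb6 had 1.78, 3.36 and 2.42 in the knockout libraries, against 21.8, 15.6 and 33.4 in the controls, again without overlap. In control S3 the keratin sum behind these ratios was 64 reads, against 2084 to 21109 in the knockout libraries and 2844 to 19459 in the other controls. With the sum of all 10 keratinocyte markers as the denominator, control S3 fell among or below the knockout libraries for both genes, so the separation of all 3 controls held on the Krt5 and Krt14 scale only, while control S2 and S4 lay above the knockout libraries on both.

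The regions before the starts of Gjb2 and Gjb6 are shown because these neighbouring genes were called together. Each is the 250 bases before the gene's start in RefSeq (build GRCm38.p6), read 5′ to 3′ on the gene's own strand, with CpG dinucleotides in capitals. The Gjb2 region is chr14:57104703-57104952 and the Gjb6 region is chr14:57133612-57133861, both on the minus strand.
Gjb2: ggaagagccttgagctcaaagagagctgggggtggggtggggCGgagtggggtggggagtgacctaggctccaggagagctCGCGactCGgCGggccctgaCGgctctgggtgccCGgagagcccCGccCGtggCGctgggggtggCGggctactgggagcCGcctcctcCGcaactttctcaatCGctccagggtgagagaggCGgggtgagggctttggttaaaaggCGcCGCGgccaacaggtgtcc
Gjb6: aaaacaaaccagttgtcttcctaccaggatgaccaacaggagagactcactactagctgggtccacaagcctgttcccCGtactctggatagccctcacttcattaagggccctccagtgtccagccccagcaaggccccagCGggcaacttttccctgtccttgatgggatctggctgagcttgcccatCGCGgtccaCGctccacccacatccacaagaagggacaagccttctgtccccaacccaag
The Gjb2 region held 18 CpG dinucleotides and 69.2% G and C, and the Gjb6 region held 5 and 56.8%, where the median over all 32851 such regions was 6 CpG and 52.4% G and C. The motif CCNNAGGC, reported for human ZNF750, was searched on both strands. These letters were found in neither region. They were in 20.4% of all regions and in 7 of the 30 regions (23.3%) searched for junction genes. These 30 regions belonged to 22 junction genes, none of them a desmosomal cadherin, and 5 of the 22 genes held the letters. Those 5 were Cldn12, Cldn4, Dsp, Ocln and Marveld2, of which 3 were tested and 0 were called in either fit of all 6 libraries.

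The other connexins, Gja1 and Gjc1, did not vary with the keratinocyte level. Gjc1 (ENSMUSG00000034520, chromosome 11), a connexin best known from heart and vessel walls, had values of 344, 324 and 255 in the knockout libraries, against 177, 130 and 151 in the controls. Every knockout library lay above every control, with means of 307 ± 46.9 in the knockout group and 152 ± 23.4 in the control group (SD, n = 3 each). The log2 fold change was 0.97 ± 0.21 (limma adjusted p = 0.0357) and was the same, 0.97 ± 0.22, with the keratinocyte level held (adjusted p = 0.0358). In the comparison of groups alone the call was lost without knockout S5 (adjusted p = 0.0956), knockout S6 (0.133), control S2 (0.0825), control S3 (0.102) or control S4 (0.0563). With the keratinocyte level held it was lost without the same 5 libraries, at adjusted p-values of 0.102, 0.138, 0.0676, 0.0771 and 0.202 in that order.

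Gja1 (ENSMUSG00000050953, chromosome 10), a connexin found in most cell types of skin, had values of 16655, 16008 and 10508 in the knockout libraries, against 20656, 27356 and 29559 in the controls. Each knockout library lay below each control, with a log2 fold change of -0.86 ± 0.28. This missed the threshold (limma adjusted p = 0.121), and it missed it with the keratinocyte level held as well (-0.83 ± 0.27, adjusted p = 0.107).

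**Figure D4:**
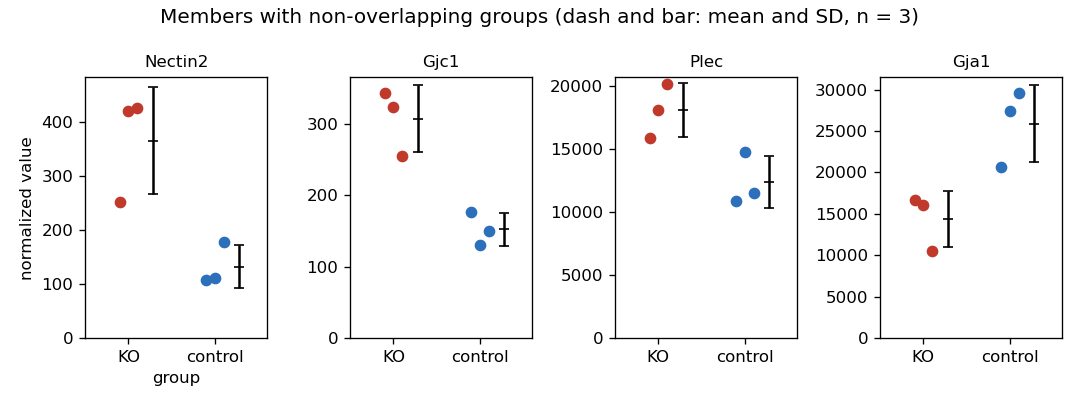
Normalized values in each library for the 4 tested members whose groups did not overlap, with knockout S5, S6 and S7 in red left of control S2, S3 and S4 in blue and, in black, the group mean with its SD (n = 3 each). Nectin2, Gjc1 and Plec are higher in every knockout library than in any control and Gja1 is lower, and of these 4 genes Nectin2 and Gjc1 passed an adjusted p of 0.05.

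Among the 4 nectins, opposite calls were made for Nectin2 and Nectin4. Nectin2 (ENSMUSG00000062300, chromosome 7), a nectin found in many cell types, had values of 251, 419 and 425 in the knockout libraries, against 107, 111 and 178 in the controls. The groups did not overlap, with means of 365 ± 98.8 in the knockout group and 132 ± 40.1 in the control group (SD, n = 3 each). The log2 fold change was 1.40 ± 0.29 (limma adjusted p = 0.0325), and it was 1.34 ± 0.27 with the keratinocyte level held (adjusted p = 0.0212). The first of these calls was lost without knockout S6 (adjusted p = 0.129), knockout S7 (0.10), control S2 (0.127) or control S3 (0.0933), and the second without knockout S6 (0.0985), control S2 (0.0740) or control S4 (0.0915).

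Marker lists of other cell types moved in both directions beside these higher values of Nectin2 and Gjc1. The sum of 6 sebocyte markers was 1577 to 2995 in knockout libraries and 657 to 896 in controls, with 3 of 5 tested genes called higher, and that of 5 fat cell markers was 530 to 3716 in knockout libraries and 255 to 486 in controls, with 0 of 3 called. The defining fat cell gene Adipoq was listed at 0 in control S2, and the sebocyte gene Awat1 in control S3 and S4. Of the 8 fibroblast markers, whose sum was lower in every knockout library, Pdgfra (log2 fold change 1.24, limma adjusted p = 0.0165) and Pdgfrb (1.00, adjusted p = 0.0384) were called higher and 0 lower. Most of that sum was Col1a1, Col1a2 and Col3a1, each lower in every knockout library. Dcn and Lum had log2 fold changes of -0.99 and -0.96, and Dpt had means of 13600 in the knockout group and 13610 in the control group.

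The sum of 6 skeletal muscle markers was 588 to 1325 in knockout libraries and 920 to 9294 in controls. All 6 had negative log2 fold changes, with a median of -1.63, and 0 were called. That of 6 smooth muscle and pericyte markers was 3073 to 5596 in knockout libraries and 3668 to 6509 in controls, with Des called lower (-1.20, limma adjusted p = 0.0132). The sums of 7 endothelial markers, 1419 to 4464 in knockout libraries and 1328 to 2234 in controls, of 8 leukocyte markers, 1245 to 8117 in knockout libraries and 1204 to 2518 in controls, and of 8 Schwann and melanocyte markers, 425 to 907 in knockout libraries and 599 to 861 in controls, also overlapped. The part of these cell types in the values of Nectin2 and Gjc1 was not tested.

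Nectin4 (ENSMUSG00000006411, chromosome 1) is an epithelial nectin whose human counterpart is mutated in an ectodermal dysplasia of hair, teeth and fingers. Its values were 19.6, 17.3 and 63.6 in the knockout libraries, against 72.4, 5.00 and 386 in the controls. As with Gjb2 and Gjb6, control S2 and S4 lay above all knockout libraries and control S3, with 4 estimated reads (1.09 to 10.2), lay below them. The comparison of groups alone gave -1.01 ± 1.09 (limma adjusted p = 0.627). With the keratinocyte level held, Nectin4 was lower in the knockout libraries by -1.48 ± 0.34 (adjusted p = 0.0355), a call lost without knockout S6 (adjusted p = 0.0937), knockout S7 (0.0685), control S2 (0.0741) or control S4 (0.314). Per 1000 of Krt5 plus Krt14 it had 8.90, 9.12 and 3.79 in the knockout libraries, against 20.04, 62.5 and 23.6 in the controls, and with the sum of all 10 keratinocyte markers in the denominator the groups were also separate.

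The regions before the starts of these oppositely called nectins, printed in the same way, are chr1:171369923-171370172 on the plus strand for Nectin4 and chr7:19749574-19749823 on the minus strand for Nectin2.
Nectin4: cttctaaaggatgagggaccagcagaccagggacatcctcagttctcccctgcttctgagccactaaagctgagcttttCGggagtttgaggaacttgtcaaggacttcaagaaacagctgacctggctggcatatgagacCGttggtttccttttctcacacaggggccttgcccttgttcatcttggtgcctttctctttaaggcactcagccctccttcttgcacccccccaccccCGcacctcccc
Nectin2: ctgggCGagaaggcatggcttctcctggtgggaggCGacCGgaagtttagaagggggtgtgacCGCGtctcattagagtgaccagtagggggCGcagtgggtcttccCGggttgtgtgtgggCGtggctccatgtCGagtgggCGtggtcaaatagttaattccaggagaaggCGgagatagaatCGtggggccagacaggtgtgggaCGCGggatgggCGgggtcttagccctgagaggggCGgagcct
The Nectin4 region held 3 CpG dinucleotides and the Nectin2 region 16, and the letters CCNNAGGC were in neither.

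Nectin1, which keratinocytes and nerve cells use and which serves herpes simplex virus as a receptor, had 1572, 1131 and 1793 in the knockout libraries, against 1562, 1429 and 4118 in the controls. The groups overlapped, with only control S4 far above the rest (log2 fold change -0.51 ± 0.40, limma adjusted p = 0.499). Nectin3, the preferred partner of Nectin1, had 747, 685 and 612 in the knockout libraries, against 718, 813 and 739 in the controls (-0.15 ± 0.15, adjusted p = 0.588).

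None of the 4 desmosomal cadherins was called in either fit of all 6 libraries. Dsc3, a desmocollin of the lower epidermal layers, had values of 317, 221 and 1983 in the knockout libraries, against 804, 29.98 and 4060 in the controls. Dsg3, the desmoglein attacked by antibodies in human pemphigus vulgaris, had 153, 129 and 800 in the knockout libraries, against 374, 16.2 and 1108 in the controls. Each control other than S3 lay above the knockout libraries S5 and S6, and S3 lay below all of them. The log2 fold changes were 0.07 ± 1.601 for Dsc3 and 0.25 ± 1.34 for Dsg3 (limma adjusted p = 0.985 and 0.935), and with the keratinocyte level held they were -0.65 ± 0.18 and -0.35 ± 0.22 (adjusted p = 0.0694 and 0.381). Dsg2, a desmoglein of simple epithelia and hair follicles, had 40.2, 38.3 and 340 in the knockout libraries, against 108, 3.75 and 634 in the controls (-0.083 ± 1.39, limma adjusted p = 0.978). Dsc2, its desmocollin counterpart, had 12.7, 39.2 and 181 in the knockout libraries, against 3.81, 5.00 and 47.1 in the controls (1.43 ± 0.87, adjusted p = 0.373). At these low levels of Dsc2, control S2 and S3 lay below every knockout library, and the groups overlapped.

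In the desmosomal plaque 6 of 7 genes were tested and 0 were called, with a median log2 fold change of 0.45. Dsp, the desmoplakin that ties keratin filaments to the desmosome, had 629, 448 and 3643 in the knockout libraries, against 1496, 42.5 and 7081 in the controls (0.32 ± 1.68, limma adjusted p = 0.934). Jup, the plakoglobin shared with adherens junctions, had 1646, 1567 and 2712 in the knockout libraries, against 1442, 884 and 3288 in the controls (0.24 ± 0.46, adjusted p = 0.797). Both had their lowest value in control S3, at 884 for Jup and 42.5 for Dsp. The plakophilin Pkp1, which strengthens desmosomes of the upper layers, had 276, 224 and 2029 in the knockout libraries, against 261, 18.7 and 1378 in the controls, and was the plaque gene with the largest positive difference (1.23 ± 1.40, adjusted p = 0.647). Pkp3, Pkp4 and Perp, a desmosome protein controlled by p63, had log2 fold changes of 0.58, 0.24 and 0.82, and Pkp2 was at 2.498 to 33.4 in all 6 libraries and was not tested.

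Per 1000 of Krt5 plus Krt14 the groups did not overlap for 6 of the 28 tested members, all lower in the knockout libraries, where 0.502% of all tested genes were separate and lower and 0.439% separate and higher. The sum ran from 79.9 in control S3 to 16790 in knockout S7, so a gene that does not rise with keratin tends to overlap on this scale. Slopes over 0.5 were found for 57.1% of tested members and 2.39% of all tested genes. The shares over all tested genes in this paragraph are therefore not a like background for the members. The 6 members were Gjb2, Gjb6 and Nectin4, described above, and the desmosome genes Dsp, Dsc3 and Dsg2. Dsp had 285, 236 and 217 in the knockout libraries, against 414, 531 and 433 in the controls. Dsc3 had 144, 116 and 118 in the knockout libraries, against 223, 375 and 248 in the controls. The difference of these desmosome genes was thus far smaller than that of Gjb2 on the same scale, and for each of the 6 the exact p was 0.1, the smallest possible. With all 10 keratinocyte markers as the denominator, Dsp, Dsc3 and Dsg2 overlapped. On that scale 4 of the 28 were separate. Nectin4 was lower, where 0.408% of all tested genes were separate and lower, and Pkp1, Cldn4 and Epcam were higher, where 1.51% were separate and higher. Without control S3 the same 6 genes as on the Krt5 and Krt14 scale were separate and lower with either denominator. Of all tested genes, 0.521% were separate and lower with Krt5 and Krt14 and 0.546% with all 10 markers. Separate and higher were then Dsc2, Pkp1, Cldn4 and Epcam with Krt5 and Krt14 (4.81% of all tested genes), and these and Nectin2 with all 10 markers (5.81%).

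**Figure D5:**
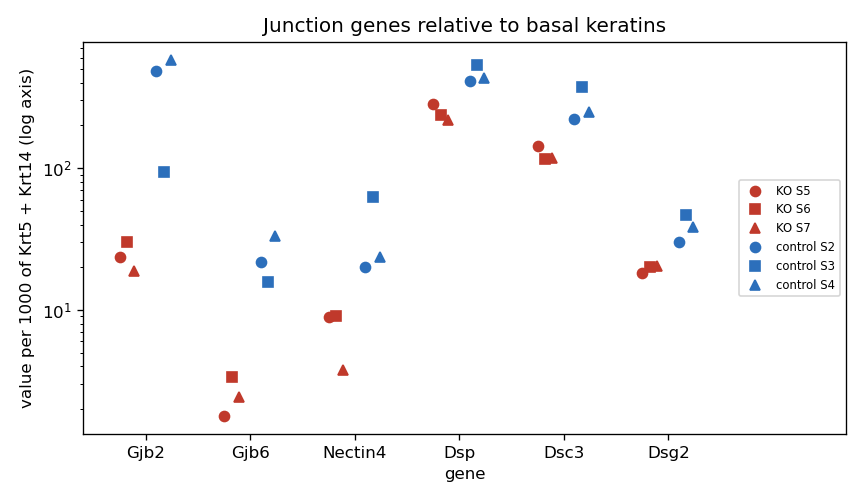
Values per 1000 of the summed Krt5 and Krt14 values of the same library (log axis) for the 6 members whose groups did not overlap on this scale, with knockout libraries in red left of control libraries in blue. Gjb2 lies at 18.9 to 30.2 in the knockout libraries and at 93.8 to 576 in the controls, while Dsp lies at 217 to 285 in the knockout libraries and at 414 to 531 in the controls.

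The plakins link junctions to the cytoskeleton, and 0 of the 4 were called. Plec, or plectin, which joins intermediate filaments to hemidesmosomes and many other structures, had 15875, 18084 and 20159 in the knockout libraries, against 10881, 14753 and 11530 in the controls. Each knockout library lay above each control, with a log2 fold change of 0.55 ± 0.23 (limma adjusted p = 0.200). When every library was rescaled to a common total, a setting that shifted the median of all tested genes by 0.299, Plec was called at 0.87 (adjusted p = 0.0367). The gene Parp10 overlaps Plec on the same strand at means of 344 in the knockout group and 408 in the control group, small beside the values of Plec. Dst, or dystonin, whose epithelial form anchors keratin at hemidesmosomes, had 6602, 6381 and 6842 in the knockout libraries, against 7225, 5049 and 8974 in the controls (-0.06 ± 0.24, adjusted p = 0.904). The cornified envelope precursors Ppl and Evpl had log2 fold changes of -0.31 ± 0.34 and -0.54 ± 0.76 (adjusted p = 0.636 and 0.719).

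Of the claudins and Epcam 4 of 6 were tested. In all 6 libraries 0 were called by the comparison of groups alone or with the keratinocyte level held. Epcam, an adhesion molecule that binds and stabilises claudins, had 82.4, 124 and 441 in the knockout libraries, against 19.1, 3.75 and 196 in the controls. Only control S4 reached into the range of the knockout libraries. The log2 fold change was 2.07 ± 1.02 (limma adjusted p = 0.277), and with the keratinocyte level held it was 1.65 ± 0.43, just short of the threshold (adjusted p = 0.0543). Without control S4 the comparison of groups alone called Epcam at 3.21 (adjusted p = 0.0393).

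Cldn4, a claudin of the upper epidermis, had 31.4, 64.7 and 236 in the knockout libraries, against 3.81, 2.498 and 95.9 in the controls, an order like that of Epcam (1.85 ± 0.97, limma adjusted p = 0.300). Cldn1, the main sealing claudin of epidermis, without which newborn mice die of water loss, had 139, 134 and 753 in the knockout libraries, against 400, 135 and 830 in the controls (-0.54 ± 0.81, adjusted p = 0.737). In control S3, Cldn1 was level with knockout S5 and S6, unlike Dsp or Dsc3. Cldn12, which is not confined to epithelia, had 376, 363 and 273 in the knockout libraries, against 236, 191 and 292 in the controls (0.48 ± 0.22, adjusted p = 0.243).

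The low claudins Cldn7 and Cldn3 did not pass the filter. Cldn7, the claudin that Epcam binds, had 15.7, 12.8 and 18.3 in the knockout libraries, against 11.4, 9.99 and 4.21 in the controls, from 14 to 23 estimated reads in the knockout libraries and 5 to 9 in the controls. Its groups did not overlap and it was not tested. Cldn3 was at 1.25 to 8.75 in all 6 libraries.

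Of the other tight junction genes 2 of 6 were tested and 0 were called. The scaffold Tjp1, known as zonula occludens protein and used by adherens and gap junctions as well, had 2153, 2145 and 1853 in the knockout libraries, against 2040, 2605 and 1745 in the controls. The groups overlapped, and all 6 values lay close together (-0.04 ± 0.19, limma adjusted p = 0.926). F11r, the junctional adhesion molecule of epithelia and endothelium, had 96.1, 100 and 329 in the knockout libraries, against 147, 27.5 and 660 in the controls (0.01 ± 0.99, adjusted p = 0.997). Ocln, the occludin of tight junction strands, had 5.88, 9.11 and 19.1 in the knockout libraries, against 10.2, 1.25 and 60.6 in the controls. Marveld2, the tricellulin of tricellular contacts, the scaffold Tjp3 and the linker Cgn were also too low to be tested, with Marveld2 listed at 0 in control S3 and Tjp3 in control S2.

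Beside these 35 genes, 67 further junction names were examined as a list, covering other cadherins, catenins, claudins, connexins, pannexins, hemidesmosome genes and Cadm adhesion genes. Of these, 56 were in the table and 42 were tested, 1 was called higher and 3 were called lower (4.12% and 2.59% of all tested genes), with a median log2 fold change of 0.15. Without control S3, 0 were called higher and 2 lower, Cldn10 and Marveld1, where 2.6% of all tested genes were called higher and 1.14% lower. The 3 lower genes were Cldn10, Marveld1 and Cadm3, and none of them followed the keratinocyte level. Cldn10, a claudin of kidney and glands that forms ion pores, had 212, 273 and 194 in the knockout libraries, against 2439, 2529 and 796 in the controls. Every knockout library lay below every control, and the log2 fold change of -2.88 ± 0.43 (limma adjusted p = 0.0105) was the largest of these calls, but the adjusted p was 0.0531 without control S2.

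Marveld1, a membrane protein related to occludin and tricellulin, had 3046, 2440 and 2664 in the knockout libraries, against 7432, 10749 and 5038 in the controls (-1.45 ± 0.28, limma adjusted p = 0.0261). Cadm3, a nectin-like adhesion molecule known from nerve cells, had 5215, 2174 and 2862 in the knockout libraries, against 14137, 12684 and 8333 in the controls (-1.84 ± 0.35, adjusted p = 0.0261). Cldn15, a claudin known from the gut, was higher, with 158, 110 and 137 in the knockout libraries, against 59.7, 62.5 and 64.8 in the controls (1.00 ± 0.23, adjusted p = 0.0433). For each of these 4 genes the groups were separate. The call of Marveld1 was lost without knockout S6 (adjusted p = 0.109), knockout S7 (0.0834) or control S2 (0.104), and that of Cadm3 without knockout S6 (0.0952), knockout S7 (0.0881), control S2 (0.111) or control S3 (0.0719). The call of Cldn15 was lost without any single library, at adjusted p-values of 0.0612 to 0.147.

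With the keratinocyte level held, 3 of these 42 genes were called higher and 5 lower (5.83% and 3.99% of all tested genes). Without control S3 this fit called the same 5 lower (4.06% of all tested genes). With all 6 libraries the calls of Cldn10, Marveld1, Cadm3 and Cldn15 remained. Added lower were Dsg1a, a desmoglein of the upper epidermal layers (-1.96 ± 0.31, limma adjusted p = 0.00911), and Cdh3, the placental cadherin of hair follicle and basal cells (-1.57 ± 0.30, adjusted p = 0.0174). Added higher were Col17a1, the hemidesmosome collagen (0.82 ± 0.19, adjusted p = 0.0330), and Cadm4, another nectin-like molecule (2.21 ± 0.55, adjusted p = 0.0450). Dsg1a had 15.9, 23.1 and 295 in the knockout libraries, against 190, 11.2 and 931 in the controls. Control S4 was the highest and control S3 the lowest, while control S2 lay below knockout S7. Its near copy Dsg1b (-0.68 ± 0.33, adjusted p = 0.259) may share reads with it, so their separate values are uncertain. Ctnnb1, the catenin of adherens junctions, had 6574, 6245 and 6310 in the knockout libraries, against 5881, 6932 and 6353 in the controls (0.01 ± 0.17, adjusted p = 0.971).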

How the data were processed

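RNA was measured in 6 libraries, 3 from Zfp750 knockout and 3 from control samples. Tools named in the submitters' processing notes are TopHat2 2.1.0 and Partek 9.0.20.0202. For the genome build, annotation release and use of strand the sources used here give nothing, so positions other than the RefSeq regions are the table's own and overlapping genes are uncertain. The authors deposited normalized counts in 1 table, per the file headers, treated as a signal of estimated reads over 1 size factor per library (0.787 to 1.26, from the values). Values are not per gene length, so levels are compared between libraries and not between genes. Of values up to 1000 reads, 78.7% to 81.2% per library were whole within 0.05 of a read, too few for count models, which were not run. Each column name gives the group and 2 numbers. The second, S2 to S7, is used here as the library's name. The first is UB1 to UB3 in the knockout columns, as in the numbered titles, but UB2 to UB4 in the control columns, whose titles are numbered 1 to 3, so columns were assigned to groups and not to single samples. Nothing states that libraries are separate mice, so the p-values reflect how far these samples spread, in part perhaps for technical reasons.

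The knockout and control groups were compared by limma 3.58.1 in R 4.3.3 (2-sided, empirical Bayes with an intensity trend) on log2(value + 9.15), a pseudocount equal to 0.5 per 1000000 of the average library's total, which shrinks fold changes of low genes. Adjusted p-values in the text are from these limma fits, over 15935 genes. On simulated data, 99% of genes changed by 3 log2 units and 33.3% of those changed by 1.5 were recovered. The simulation gave every gene the same dispersion. The members spread more widely than most genes, with a median SD of log2 values of 0.918 (knockout) and 1.38 (control). These recovery rates therefore do not apply to them. An uncalled member with a wide standard error, such as Dsp (0.32 ± 1.68), may still have changed by 3 log2 units. Per-library ratios and exact permutation tests used Python 3.11.15. Named were all members, Zfp750, the called genes of the second junction list and defining cell type markers. Adipoq, Awat1, Dsg1b, Ctnnb1 and Des were named after their values were seen. Members and lists were chosen with earlier results of these data known. One result of the second junction list is not reported here. Alternatives changed pseudocount, filter, scaling, variance model, library weights, covariate and the libraries used. Intervals and floors cover counting error only.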

Additional observations from a re-analysis of the deposited data

How the results depend on the processing

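The calls rest on 3 libraries a group. Over 16 alternatives, 371 of 443 pairs of member and setting kept their direction and their side of the threshold, 9 gained a call and 10 lost one. In control S3, the library with the most reads, Gjb2, Gjb6 and Nectin4 rest on 1 to 6 reads. The causes of the changes below were not tested.

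Members called higher numbered 0 to 2 and lower 0 to 1 with each library left out, and 3 were lower with the keratinocyte level as covariate. Other junction genes called higher numbered 0 with no filter, 2 at a common total, 2 with library weights, 3 with the covariate and 0 to 1 in the leave-outs, and those called lower 5 with the covariate and 0 to 5 in the leave-outs. Over all tested genes, calls were 1057 higher at a common total (78.9% of calls, against 61.4% in the main fit), 1132 higher and 865 lower with library weights, 636 lower with the covariate, and 234 to 697 higher and 94 to 588 lower in the leave-outs. In alternatives of the covariate fit chosen after seeing the data, members called higher were 0 to 5 and lower 0 to 4 in the leave-outs, and 5 were lower, Dsp and Dsc3 added, with Krt5 and Krt14 as the covariate.

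The first column number occurs in both groups for 2 of its 4 values (UB2 in knockout S6 and control S2, UB3 in knockout S7 and control S3), and nothing states that it pairs libraries. Deviations from the group means correlated at 0.251 across genes for UB2 and at -0.223 for UB3. With this number as a replicate block, an alternative chosen after seeing the data that leaves 1 residual degree of freedom, 4 members were called higher (Nectin2, Dsc2, Cldn4 and Epcam), 0 lower and 5 at an unadjusted p under 0.05. Gjc1 was not called (0.88, limma adjusted p = 0.0910). Other junction genes called were 2 higher and 5 lower, and of all tested genes 821 higher and 706 lower. Signs changed to 1.73 for Dsg2, 0.10 for Ppl, 0.62 for Evpl, 0.13 for Dst, 0.44 for Cldn1 and 0.37 for Nectin4.

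Uncalled members changed sign 53 times in all. With the covariate the log2 fold change became -0.35 for Dsg3, -0.65 for Dsc3, -0.43 for Dsp, -0.066 for Pkp3, 0.021 for Tjp1 and -0.42 for F11r. Library weights gave -0.41 for Dsg3, -0.55 for Dsc3, -0.38 for Dsp, 0.0042 for Tjp1 and -0.15 for F11r. A common total gave 0.091 for Dsg2, 0.012 for Ppl, 0.26 for Dst, 0.28 for Tjp1 and 0.17 for Nectin3. The pseudocount of 0.1 per 1000000 gave 0.19 for Dsg2, that of 2 gave -0.11 for Dsc3 and -0.10 for F11r, and trimmed mean scaling gave -0.0038 for F11r. Leave-outs gave -1.55 to 1.27 for Dsg2, -1.32 to 1.41 for Dsg3, -1.78 to 1.57 for Dsc3, -1.68 to 1.87 for Dsp, -0.19 to 0.76 for Jup, -0.25 to 2.57 for Pkp1, -0.96 to 2.099 for Pkp3, -0.085 to 0.51 for Pkp4, -1.06 to 2.35 for Perp, -0.62 to 0.064 for Ppl, -1.05 to 0.31 for Evpl, -0.29 to 0.13 for Dst, -1.33 to 0.059 for Cldn1, -0.17 to 0.12 for Tjp1, -1.04 to 1.05 for F11r and -2.24 to 0.17 for Nectin4.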
